A study of Mus musculus with 43 samples.

Results

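The promoters described here had a peak of trimethylated lysine 4 of histone H3 (H3K4me3) and no peak of acetylated lysine 27 (H3K27ac) in filtered mouse testis tubule cells of postnatal day 7 (P7), which the labels call spermatogonia. They were selected on the deposited peak lists, in which a peak is a stretch of the genome where CUT&Tag reads for a mark were enriched. A member is a peak of the first P7 wild-type (WT) H3K4me3 list that overlapped a peak of the second list, had its summit within 3000 bp of a GENCODE vM21 transcript start, overlapped no peak of either P7 WT H3K27ac list, and was not among the 5% widest peaks. Of 19162 peaks in the first list, 16166 overlapped the second, 14739 of these lay at promoters, 6313 of these lacked H3K27ac, and the width limit of 1794 bp removed 142, which left 6171 members. They were 44.7% of the 13790 promoters that met every condition except the one on H3K27ac. The others held an H3K27ac peak in 1 list (2934 promoters) or in both (4685 promoters, called acetylated promoters below). The members lay nearest to 5399 genes, and 4723 of these genes had no H3K4me3 promoter peak of another class. Just inside the distance limit stood a peak 2989 bp from a start of Atp6v1fnb and just outside it a peak 3022 bp from Zap70. The width limit kept a peak of 1794 bp at Mycl and left out one of 1800 bp at Hunk. A peak near Gm22238 was kept with H3K27ac 4 bp away, and one at Cited4 was left out for an overlap of 1 bp.

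The study addressed what arginine methylation, and protein arginine methyltransferase 1 (Prmt1) in particular, does in male germ cell development. The chromatin part held 33 CUT&Tag peak lists of 7 marks, 17 from P7 and 16 from P14, made from digested and filtered testis tubule cells, with no sort stated, of C57BL/6J mice. Among them, 2 P7 lists of H4R3me2s came from Prmt1 conditional knockout males, labelled dKO, and the RNA part held 10 P7 libraries: Smart-seq2 of sorted spermatogonia (2 WT, 2 dKO) and bulk RNA-seq of whole testis (3 WT, 3 dKO). In dKO males the Ddx4 locus, active in germ cells, drives EGFP and a tamoxifen-inducible Cre (Ddx4-CreERT2) that excises exons 4 and 5 of Prmt1 lox/lox, and the labels describe tamoxifen on 3 days for WT and knockout samples together. The methods name Cre carriers heterozygous for the floxed allele as controls of the sorted cells, whereas the labels of those libraries say WT. The labels call the bulk libraries spermatogonia although their RNA came from whole testis. The study describes its experiments as run in biological replicates, but no label ties a deposited sample to an animal. The p-values below rest on these samples, and that of the sign-flip test on lists of 5 different marks. The sources used here do not say whether animals were pooled.

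H3K4me3 is placed at promoters, mostly CpG-rich ones, and marks genes that are transcribed as well as many genes that are silent but able to be switched on. H3K27ac is written by the acetyltransferases p300 and CBP and marks promoters and enhancers in active use. Promoters of developmental regulators in germ cells are known for carrying H3K4me3 together with the Polycomb mark H3K27me3, which was not analysed here. Asymmetric dimethylation of histone arginines (H4R3me2a, H3R2me2a, H3R8me2a) is written by type I enzymes such as Prmt1, monomethylation (H4R3me1) is its intermediate, and symmetric dimethylation (H4R3me2s) is written by type II enzymes such as Prmt5.

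The lists give peaks and their fold enrichment over the background estimated by the peak caller, but no read counts, so the depth of the CUT&Tag libraries is unknown and a promoter without a peak may carry a mark below detection. The arginine lists of P14 were mostly longer (18423 to 55908 peaks) than those of P7 WT (15361 to 36145 peaks), the P14 titles name spermatogonia while their cell type field names spermatocytes, and the peaks inside the P14 H4R3me2s lists carry a name that reads as day 17. Markers of Sertoli cells, which share the tubules, carried H3K4me3 at P7 too: of 10 markers 9 had a promoter peak and Rhox5 had none, whereas all 5 Leydig markers had no H3K4me3 within 3000 bp. Of 5 peritubular markers, Acta2 was acetylated in both lists, Cnn1 had no H3K4me3, and Myh11, Tagln and Des could not be placed in a class. The endothelial markers Cdh5 and Kdr were members while Pecam1 and Tek had no H3K4me3, and 4 of 5 macrophage markers had none. Of 10 germ cell markers, Zbtb16, Kit, Stra8 and Dmrtb1 were members, Ddx4 held H3K27ac in 1 list, Dazl held it in both, Sall4 was among the widest peaks, Lin28a and Sohlh1 had no H3K4me3, and Uchl1 fell into none of these classes.

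The members were CpG-rich promoters, and the sequences directly upstream of 5 of them show the range. They belong to Isl1 (a homeobox factor of motor neurons and heart), Nkx6-1 (a homeobox factor of neural tube and pancreas), Rhox13 (a germ cell homeobox gene on the X chromosome), B3glct (a glucosyltransferase of the secretory pathway, with more arginine marks than almost any other member) and Rhox8 (a homeobox gene of Sertoli cells, also on the X chromosome). Each is the 200 bases before the annotated transcript start in GRCm38 (mm10), read 5′ to 3′ on the strand of the gene and free of annotated exons, with CpG dinucleotides in capitals.
Isl1, chr13:116309690-116309889, strand -: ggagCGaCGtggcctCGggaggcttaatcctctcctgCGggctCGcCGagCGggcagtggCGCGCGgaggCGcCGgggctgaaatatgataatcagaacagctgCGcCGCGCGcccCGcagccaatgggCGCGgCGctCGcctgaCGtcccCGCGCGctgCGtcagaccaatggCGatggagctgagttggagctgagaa
Nkx6-1, chr5:101664997-101665196, strand -: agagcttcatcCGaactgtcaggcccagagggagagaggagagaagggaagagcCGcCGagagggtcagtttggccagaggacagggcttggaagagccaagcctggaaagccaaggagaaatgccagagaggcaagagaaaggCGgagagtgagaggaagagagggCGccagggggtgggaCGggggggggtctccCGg
Rhox13, chrX:38121019-38121218, strand +: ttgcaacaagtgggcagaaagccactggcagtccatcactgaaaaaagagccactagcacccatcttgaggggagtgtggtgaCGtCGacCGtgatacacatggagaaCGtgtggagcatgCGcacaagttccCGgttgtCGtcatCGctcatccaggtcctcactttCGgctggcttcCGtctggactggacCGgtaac
B3glct, chr5:149678030-149678229, strand +: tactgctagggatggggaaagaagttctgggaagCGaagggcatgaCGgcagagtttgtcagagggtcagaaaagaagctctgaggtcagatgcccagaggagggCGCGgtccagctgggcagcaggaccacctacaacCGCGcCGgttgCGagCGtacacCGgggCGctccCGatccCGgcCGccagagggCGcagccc
Rhox8, chrX:37878945-37879144, strand -: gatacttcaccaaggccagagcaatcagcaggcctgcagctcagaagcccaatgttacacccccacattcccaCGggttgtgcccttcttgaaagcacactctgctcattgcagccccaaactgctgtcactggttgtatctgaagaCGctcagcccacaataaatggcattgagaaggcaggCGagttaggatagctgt
The Isl1 sequence held 27 CpG and the Rhox8 sequence 3, with Nkx6-1 at 7, Rhox13 at 11 and B3glct at 15. In the window of 500 bases on each side of its H3K4me3 summit, called the summit window below, Rhox8 had a ratio of observed to expected CpG of 0.325, below the lower quartile of the members. In these summit windows the members' median GC content was 60.7% (quartiles 55.7% and 65.4%) and their median ratio of observed to expected CpG was 0.684 (quartiles 0.554 and 0.8).

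By composition the members stood close to the acetylated promoters and far from promoters without H3K4me3. Acetylated promoters had a median GC content of 60.2% and a CpG ratio of 0.774, while 7863 starts of protein-coding genes without H3K4me3 within 3000 bp had 45.8% and 0.177. A GC content of at least 50% with a CpG ratio of at least 0.6 was met by 65.3% of members, 84.4% of acetylated promoters and 2.42% of starts without H3K4me3. These are descriptions with no test, since the members were chosen on marks that follow CpG content.

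Some short motifs differed in frequency between members and acetylated promoters. Of 12 motifs searched on both strands, the core of the sites of ETS factors (CCGGAAG) occurred in 18.1% of member windows, 35.2% of acetylated windows, 4.85% of windows without H3K4me3 and 18.4% of all 21649 windows. The core of the YY1 site (AAGATGGCG) occurred in 1.99%, 8.14%, 0.471% and 3.23%, and the core of the NRF1 site (GCGCATGC) in 5.04%, 9.23%, 2.23% and 5.14%. Neither the TATA box core (TATAAA, 17.3% of members and 17.3% of acetylated promoters, 51.4% of starts without H3K4me3) nor the GC box (GGGCGG, 85.5% and 88.7%, against 21.2%) told the members from the acetylated promoters in this way. None of these 5 motifs contains another. Within the members the shares followed H3K27ac a week later: the ETS core lay in 13.4% of members with no P14 H3K27ac, 18.7% of those with it in 1 P14 list and 26.1% of those with it in both, and the YY1 core in 1.15%, 1.45% and 3.98%. Sites at members that held H3K27ac in at least 1 P14 list are shown with 10 bases on each side, the match in capitals, for Psmd8 (a proteasome subunit), Adad1 (a testis RNA-binding protein), Rhox13, Ftl1 (ferritin light chain) and Uqcr11 (a subunit of respiratory complex III).
Psmd8, YY1 core, chr7:29180438-29180466, strand -: cgcatcacggAAGATGGCGgccacagcgg
Psmd8, ETS core, chr7:29180312-29180338, strand -: acgagtggaaCCGGAAGaacccgaacc
Adad1, ETS core, chr3:37063451-37063477, strand +: cctgacaaggCCGGAAGaacggggtcc
Rhox13, NRF1 core, chrX:38121125-38121152, strand -: gggaacttgtGCGCATGCtccacacgtt
Ftl1, NRF1 core, chr7:45459444-45459471, strand +: aagaaggcccGCGCATGCgcaggagggt
Uqcr11, ETS core, chr10:80406871-80406897, strand -: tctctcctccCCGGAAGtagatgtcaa
A match is a run of letters and was not tested as a binding site.

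**Figure D1:**
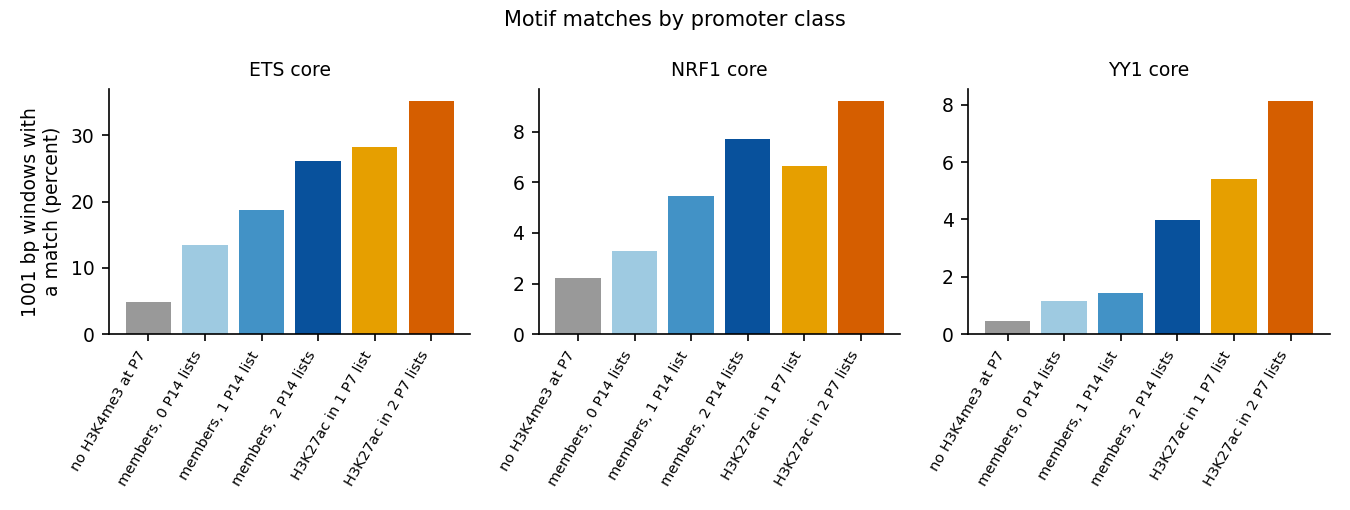
Share of summit windows (percent, each axis from 0) that hold a match to the ETS, NRF1 or YY1 core on either strand, for starts without H3K4me3 (grey), members by the number of P14 lists with H3K27ac (blues), and promoters with H3K27ac in 1 or 2 P7 lists (orange, red). For the ETS core the bars run from 4.85% in starts without H3K4me3 through 13.4%, 18.7% and 26.1% in members to 35.2% in acetylated promoters.

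The H3K4me3 peaks of the members were narrower and weaker than those of the acetylated promoters, with wide overlap. Their median width was 739 bp (quartiles 461 and 1058 bp) against 1196 bp, and their median fold enrichment in the first list was 4.85 (quartiles 3.92 and 5.92) against 6.36. In the second list the medians were 4.94 and 6.48. The summit lay within 1000 bp of the start at 94.4% of members and downstream of it at 73.9%. Protein-coding genes were nearest to 5470 members (88.6%), antisense transcripts to 174 and lincRNAs to 171. The X chromosome held 310 members (5.02%) but 92 acetylated promoters (1.96%). The nearest P7 H3K27ac peak lay a median of 13864 bp away, although 900 members (14.6%) had one within 1000 bp. As width, strength and distance enter the rule or follow it, these values are given without a test.

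Many developmental and neuronal genes of the lists were members, while few genes of housekeeping complexes were. Of 144 developmental transcription factors, 53 had member promoters alone, among them Isl1, Sox2, Neurog2, Irx3 and Gata3, 2 had H3K27ac in 1 list and 0 were acetylated in both, while 48 had no H3K4me3. Of 78 developmental signalling genes, 39 were members and 2 were acetylated. That list holds ligands of the Wnt, Bmp and Fgf families, their antagonists and other signalling genes such as Sema3a and Notch3. Of 74 neuronal channel and synapse genes, 39 were members and 0 were acetylated. Over all 21951 protein-coding genes, 18.7% were members, 16.9% acetylated and 35.8% without H3K4me3. By contrast, 0 of 38 cytosolic ribosomal protein genes had member promoters alone and 24 were acetylated, and of 31 proteasome subunit genes Psmd8 was the single member and 20 were acetylated. Zinc finger genes of the Zfp series lay between, with 79 of 400 members and 140 acetylated. Nothing is claimed to be particular to a list, since no list was tested against others.

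Germline genes appeared among the members as well. The members' share was 29.6% of the germline program, 13.3% of meiotic prophase and 13.7% of pachytene and spermatid genes. Over all protein-coding genes it was 18.7%. Of 54 genes of the germline program, 16 were members, including Zbtb16 (a factor of undifferentiated spermatogonia, also called Plzf), Gfra1 and Ret (the receptor pair for GDNF, which maintains spermatogonial stem cells), Kit and Ccnd1 (markers of differentiating or dividing spermatogonia), Sohlh2 and Dmrtb1, and 8 were acetylated. Of 45 meiotic prophase genes in the annotation, 6 were members: Stra8, needed for meiotic entry, Dmc1, the meiotic recombinase, Rad21l, a meiotic cohesin subunit, Mei4 and Ankrd31, needed for meiotic DNA breaks, and Syce3, of the synaptonemal complex. Another 11 held H3K27ac in 1 list and 6 in both. Of 73 pachytene and spermatid genes, 10 were members and 35 had no H3K4me3. Of 21 Sertoli genes, 8 were members (Amh, Cst9, Dhh, Dmrt1, Inhbb, Rhox8, Sox9 and Wt1), of which germ cells also express Dmrt1. The Leydig, peritubular and endothelial lists gave 2 members each (Hsd17b3 and Nr2f2, Itga8 and Tpm2, Cdh5 and Kdr), and the macrophage list gave 0 of 12. The methods describe a collagenase step against interstitial cells and a strainer against Sertoli cells, and the study stated that germ cells far outnumbered somatic cells in the filtrate. The part of other cells in the H3K4me3 at these genes was not tested.

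**Figure D2:**
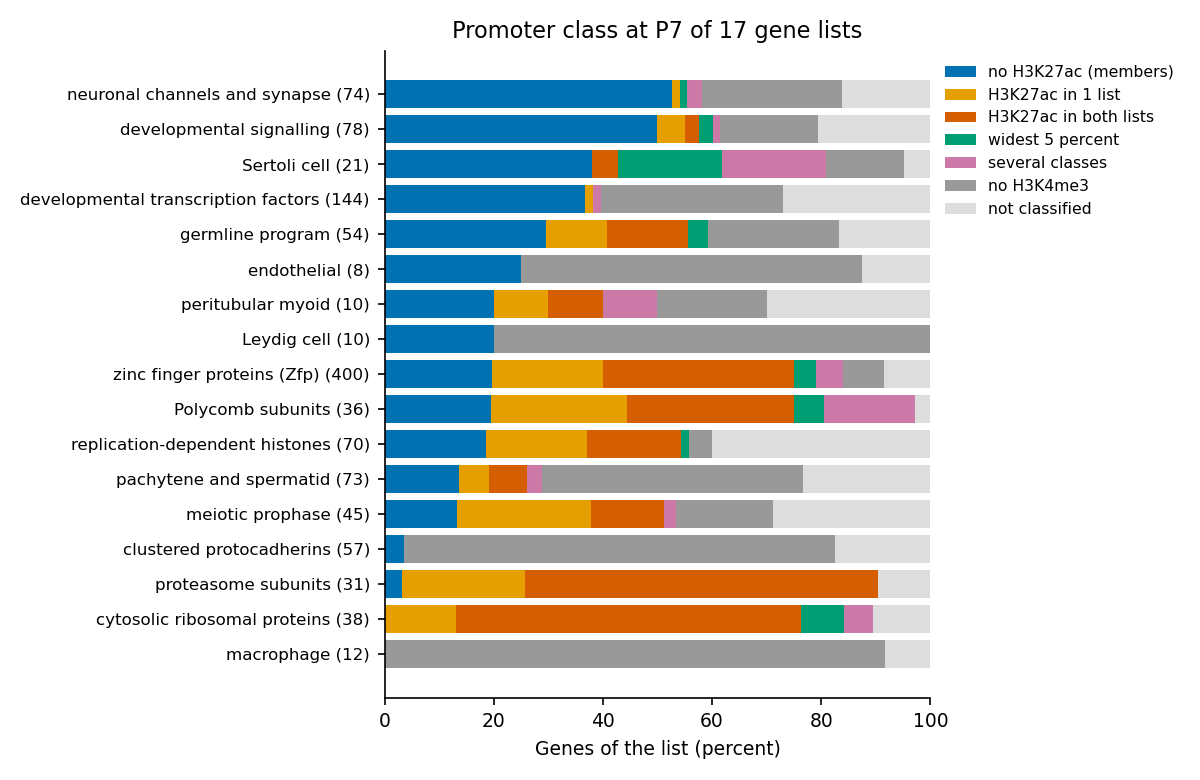
Promoter class at P7 of the genes of 17 lists (percent of each list's annotated genes, number in brackets); genes with peaks of several classes and genes whose H3K4me3 peak was assigned elsewhere or found in 1 list are drawn apart. Members (blue) make up 52.7% of neuronal channel and synapse genes, 50% of developmental signalling genes and 36.8% of developmental transcription factors, against 3.23% of proteasome subunits and 0% of cytosolic ribosomal proteins.

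RNA of the member genes was low but not absent. Among the 4710 member genes in the RNA tables, the median in the WT Smart-seq2 libraries was 2.06 and 1.01 TPM (RNA level per transcript length, scaled to the library), and 54.3% and 50% of the genes reached 1 TPM. In the 3 WT bulk libraries the medians were 7.88, 7.75 and 7.2 TPM, and 76.6%, 76.8% and 75.8% reached 1 TPM. Acetylated genes had medians of 32.5 and 30.5 TPM in Smart-seq2 and of 32.9, 33.3 and 31.1 in bulk, and starts without H3K4me3 had a median of 0 in all 5 libraries. Both WT Smart-seq2 libraries put 2002 member genes at or above 1 TPM and 1797 below, while 911 passed in 1 library alone. Of those 1797, 810 reached 1 TPM in all 3 WT bulk libraries, which hold the other cells of the testis: the 10 Sertoli markers summed to 5659 to 6060 TPM in WT bulk but 231.5 and 257 TPM in the sorted WT cells, and the 5 Leydig markers to 618 to 718.8 TPM against 0.12 and 6.97 TPM. In bulk tissue, fewer cells of a type and less RNA per cell cannot be told apart.

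Some member genes had abundant RNA without an H3K27ac peak at P7. The 5 protein-coding member genes with the highest mean TPM in WT sorted cells were Ppia (a peptidyl-prolyl isomerase, 4170 and 4310 TPM), Tuba3a (an alpha-tubulin of the testis, 2430 and 2350 TPM), Ftl1 (2290 and 2470 TPM), Uqcr11 (2120 and 2220 TPM) and Elob (a subunit of the elongin complex, 1730 and 1850 TPM). Their H3K4me3 fold enrichment in the first list ran from 4.24 for Uqcr11 to 6.97 for Tuba3a, which lies in the highest quartile of the members. Ppia, Ftl1 and Tuba3a have close copies elsewhere in the genome, so both their read counts and their peaks may be split between loci. Ppia, Tuba3a, Ftl1 and Elob held H3K27ac in both P14 lists, and Uqcr11 held it in 1. An H3K27ac peak lay 256 bp from the Ftl1 peak already at P7, and 24134 bp from that of Elob.

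Developmental factors were at the other end. The 53 member genes of that list had a median of 0.01 TPM in sorted WT cells (mean of 2 libraries) and 13 of them reached 1 TPM. Isl1, with the highest H3K4me3 enrichment of the list (8.42 and 7.35 in the 2 lists), stood at 4.01 and 9.96 TPM in sorted WT cells and at 0.84 to 1.28 TPM in WT bulk. Sox2, a pluripotency and neural factor, was at 0 and 0.04 TPM in sorted WT cells and at 0.05 to 0.11 TPM in WT bulk. The 39 signalling genes had a median of 0 TPM in sorted cells and 3.92 TPM in bulk. Sema3a, an axon guidance ligand, was at 0 in both sorted WT libraries and at 1.65 to 2.56 TPM in WT bulk. By contrast, the 16 germline members had medians of 32.3 TPM in sorted cells and 31.8 TPM in bulk, and all 16 reached a mean of 1 TPM in both assays. Kit stood at 73 and 57.4 TPM in sorted WT cells, Stra8 at 131 and 62.9 TPM and Rhox13 at 222 and 250 TPM. Zbtb16 differed between the libraries, with 24.7 and 0.83 TPM.

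**Figure D3:**
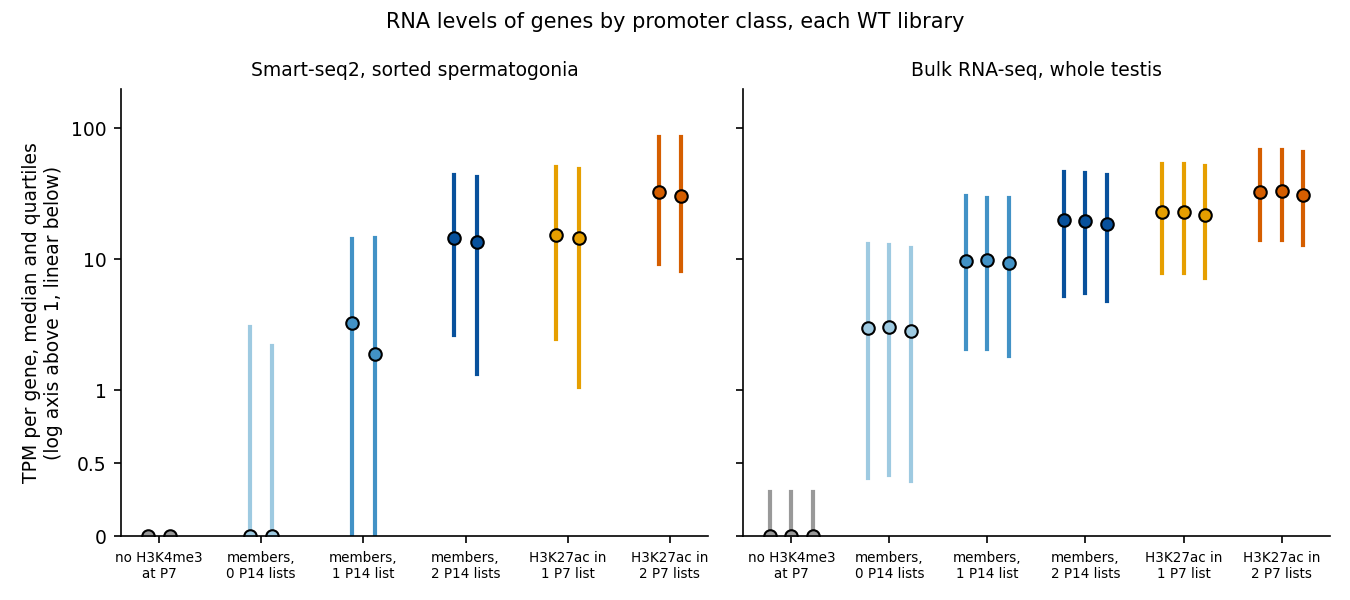
RNA level in TPM of the genes of each class in every WT library (left, 2 Smart-seq2 libraries of sorted spermatogonia; right, 3 bulk libraries of whole testis); points are medians over genes, lines run from the lower to the upper quartile, and the axis is logarithmic above 1 and linear below. Members are split by the number of P14 lists with H3K27ac: in Smart-seq2 their medians are 0 and 0 TPM with none, 3.28 and 1.9 with 1 and 14.7 and 13.7 with 2, against 32.5 and 30.5 at acetylated genes.

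Each arginine mark was found at a smaller share of members than of acetylated promoters at P7, in every list. H4R3me2a peaks lay in the summit window of 6.21%, 7.15% and 6.98% of members in the 3 WT lists against 21.9%, 22.9% and 24.4% of acetylated promoters. H3R2me2a was at 10.2% and 10.5% against 28.2% and 23.6%. H3R8me2a showed the lowest shares, 5.32% and 5.83%, against 29.3% and 30.7%. H4R3me1 was at 8.3% and 6.35% against 33.3% and 23.4%. H4R3me2s was the most frequent at the members, 15.5% and 15.2%, against 47.7% and 46.3%. The 2 groups of shares did not overlap for any mark, and starts without H3K4me3 held fewer peaks than members in all 11 lists, between 0.928% and 2.87%. Over the 11 lists the members' share averaged 8.87% and that of acetylated promoters 30.1%, a difference of -21.3 percentage points ± 6.5 (SD, n = 11 lists). All 11 differences had the same sign (two-sided exact sign-flip permutation test over lists, p = 0.000977, the smallest that 11 lists allow). With peaks at q of at most 0.01 the difference was -6.04 points, with the same p. The lists belong to 5 marks, so this SD mixes marks with replicates. They come from 1 mouse strain and age, and no label says that they are independent animals.

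The gap appeared at both weaker and stronger H3K4me3 peaks, and strength within each group was not held equal. When members and acetylated promoters were split together at a fold enrichment of 5.56, H3R8me2a lay at 4.84% and 5.39% of 4154 weaker members against 28.2% and 29% of 1297 weaker acetylated promoters, and at 6.3% and 6.74% of 2017 stronger members against 29.8% and 31.4% of 3388 stronger acetylated ones. H4R3me2s lay at 13.5% and 12.2% against 41.6% and 40.4% in the weaker group and at 19.7% and 21.4% against 50% and 48.5% in the stronger. Counting a mark as present when at least 2 lists held it, 5563 members (90.1%) had none of the 5 arginine marks at P7, 498 had 1, 84 had 2 and 26 had more. Both lists held H4R3me2s at 249 members, H3R2me2a at 181, H4R3me1 at 79 and H3R8me2a at 52. At least 2 of the 3 lists of H4R3me2a held it at 187, a count that the third list can raise. Among acetylated promoters 55.2% had none and 10.8% had at least 3 marks, against 0.421% of members. Of members at genes with no peak of another class, 2 had 4 marks: B3glct, with H4R3me2a, H3R2me2a, H4R3me1 and H4R3me2s each in 2 lists and RNA at 24 and 5.01 TPM in sorted WT cells, and the predicted gene Gm20547, at 0 TPM in both, whose peak of 311 bp lay 283 bp from H3K27ac.

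**Figure D4:**
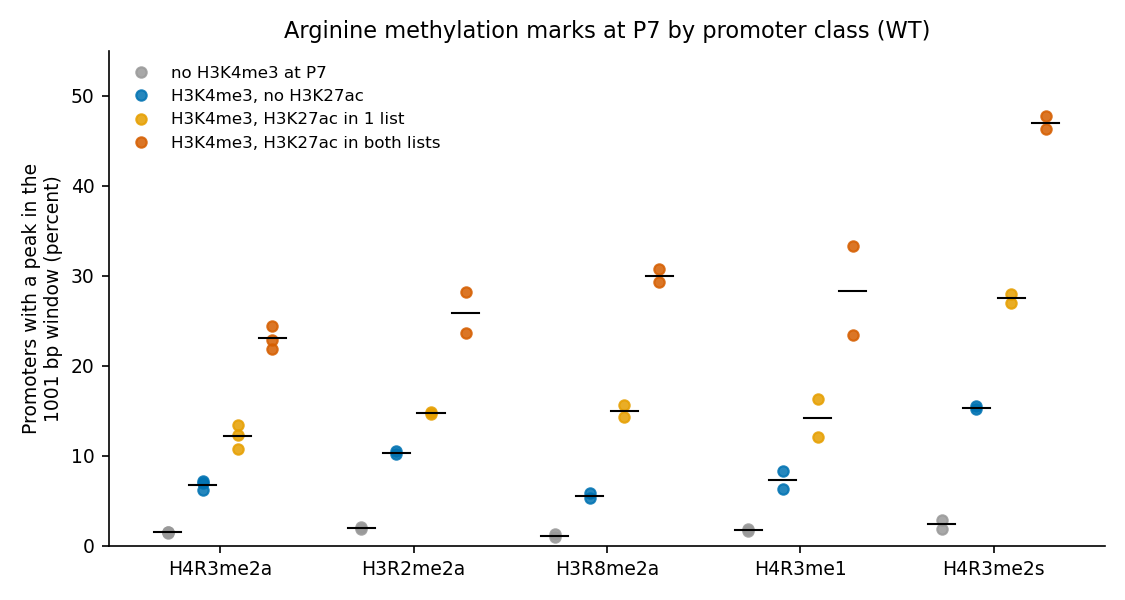
Percent of promoters with an arginine mark peak in the summit window at P7, 1 point per WT list and a bar at the mean, for starts without H3K4me3 (grey), members (blue) and promoters with H3K27ac in 1 (orange) or both (red) P7 lists. Members lie between 5.32% and 15.5% and acetylated promoters between 21.9% and 47.7%, with members below acetylated promoters within every mark.

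At P14 a part of the members held H3K27ac. At P7 none does by the rule, so the P14 shares are given without a test, and the P14 H3K27ac lists were longer (37984 and 45817 peaks) than those of P7 (21974 and 23780 peaks). H3K27ac overlapped the H3K4me3 peak at 43.2% of members in the first P14 list and 36% in the second, against 98% and 95.9% of acetylated promoters. Both lists held it at 1682 members (27.3%, exact binomial 95% interval 26.1% to 28.4%, which covers counting error only), 1 list at 1521 (24.6%) and neither at 2968 (48.1%). With P14 peaks at q of at most 0.01 the share in both lists was 16.1%. Of promoters with H3K27ac in 1 P7 list, 74.2% held it in both P14 lists, and of acetylated promoters 94.9% did. H3K4me3 itself was largely kept: 89.3% and 91.5% of members overlapped a peak of the 2 P14 H3K4me3 lists and 368 (5.96%) overlapped none, against 0.384% of acetylated promoters. The share with H3K27ac in both P14 lists grew with the P7 H3K4me3 enrichment, from 15.8% of the lowest quartile of members (1.67 to 3.92) through 19.9% and 29.1% to 44.2% of the highest (5.92 to 12.3). On the X chromosome 32.6% of members held H3K27ac in both P14 lists, on the autosomes 26.8%.

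The members that held H3K27ac at P14 were already the more expressed ones at P7. Genes of members with H3K27ac in both P14 lists had P7 medians of 14.7 and 13.7 TPM in sorted WT cells and 20.1, 19.7 and 18.7 TPM in WT bulk. With H3K27ac in 1 P14 list the sorted medians were 3.28 and 1.9 TPM, and without it 0 and 0 TPM, with bulk medians of 2.82 to 3.03 TPM. The quartiles of these groups overlapped. Of the P7 arginine marks, H4R3me2s, H3R8me2a and H4R3me1 followed the same order in both of their lists. H4R3me2s lay at 10.9% and 10.8% of members with no P14 H3K27ac, at 16.7% and 16.1% of those with it in 1 list and at 22.6% and 22.1% of those with it in both, and H3R8me2a at 3.91% and 3.81%, 4.87% and 6.71%, and 8.2% and 8.62%. H4R3me2a followed it in 2 of 3 lists, and in the second list it lay at 5.83%, 8.55% and 8.2%. H3R2me2a followed it in neither, with 9.84%, 9.4% and 11.7% in the first list and 9.77%, 11.4% and 10.9% in the second. P14 peaks come from lists that the rule did not use, but both they and the P7 lists follow the strength of a promoter's signal, and no test was made of the difference between these groups.

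By function, meiotic prophase members and most germline members held H3K27ac in both P14 lists, while few developmental members did. All 6 meiotic prophase members had it in both P14 lists, as did 10 of the 16 germline members and 10 of 13 replication-dependent histone genes. Of 53 developmental transcription factors, 2 did (Lhx6 and Pou4f1), and of 39 signalling genes 1 did. In 1 list alone it lay at 8 of the 65 promoters of these factors and at 10 of the 46 of signalling genes. Of 10 pachytene and spermatid members, 4 held it in both lists (Meig1, Spag4, Tex101 and Ybx2), 2 in 1 list and 4 in none. Among 39 neuronal genes 4 did: Kcnd3, Nrxn2, Slc17a7 and Syn2. Over all member genes, 1443 of 4723 had such a promoter, which made 1475 of their 5381 promoters (27.4%). Ankrd31 reached a P14 H3K27ac fold enrichment of 7.53 in the first list, with RNA at 57.8 and 83.8 TPM in P7 sorted WT cells, and Syce3 reached 4.05 with 569 and 490 TPM. Dmc1 reached 4.77 with 19.9 and 43.6 TPM. Of protein-coding members the highest first-list enrichment belonged to Vps50 (an endosomal recycling subunit, 9.42), Trpc1 (a cation channel, 9.25), Ccdc172 (a coiled-coil protein of sperm, 8.43), Ndufa12 (of respiratory complex I, 8.33) and Adad1 (8.1). In the second list their enrichment was lower, 6.55, 2.99, 5.29, 5.88 and 5.88 in the same order, so this ranking rests on the first list. The zinc finger gene Zfp81, at 6.89 in the first list, reached 9.58 in the second. In sorted WT cells Vps50 stood at 41.8 and 31.9 TPM, Trpc1 at 30.6 and 18.4 TPM, Ccdc172 at 40.9 and 74.5 TPM, Ndufa12 at 476 and 458 TPM and Adad1 at 73.5 and 37.8 TPM. Of the 8 Sertoli members Dmrt1, which germ cells also express, had a promoter with H3K27ac in both P14 lists, Amh, Sox9 and Wt1 had it in 1 list, and Cst9, Dhh, Inhbb and Rhox8 in none.

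Arginine peaks were also found at more members at P14 than at P7, for 4 of the 5 marks without overlap between lists. H3R2me2a lay at 10.2% and 10.5% of members at P7 and at 48.4% and 52.7% at P14. H4R3me2a stood at 24.3%, 32.2% and 30.2% at P14, H3R8me2a at 25.7% and 24.1%, and H4R3me1 at 20.1% and 23.4%. H4R3me2s overlapped between ages, with 22.2%, 14.6% and 17.1% at P14. The differences in mean share were 22.1 percentage points for H4R3me2a, 40.2 for H3R2me2a, 19.4 with H3R8me2a, 14.4 with H4R3me1 and 2.6 in the case of H4R3me2s. None passed a two-sided exact permutation test over lists after adjustment over the 5 marks: the raw p was 0.1 for H4R3me2a, 0.6 for H4R3me2s and 0.33 for the other 3, adjusted 0.417, 0.6 and 0.417. The smallest raw p that these numbers of lists allow is 0.1 for H4R3me2a and H4R3me2s and 0.33 for the rest, so this design cannot pass 0.05. List length moved with the result: with every list of a mark cut to its shortest by best p, the differences were 9.38, 18.7, 9.12, 10.4 and 2.4 points in the same order, and with peaks at q of at most 0.01 they were 8.08, 26.5, 6.73, 5.77 and 1.05 points. The H4R3me2s difference was 0.47 points without P14 replicate 1 and 4.3 without P14 replicate 2. The change was not confined to the members. Acetylated promoters went from a mean of 25.9% to 84.1% for H3R2me2a and from 23% to 74% for H4R3me2a, and starts without H3K4me3 from 1.96% to 8.81% and from 1.5% to 5.06%.

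H3R2me2a at P14 also covered members without H3K27ac. It lay at 41.4% and 45.5% of the members with no P14 H3K27ac, against 58.7% and 63.1% of those with it in both lists, whereas H3R8me2a lay at 16.9% and 14.7% against 40.7% and 39.4%. At promoters of the developmental transcription factors, 36 of 65 (55.4%) had H3R2me2a in both P14 lists, and 6 (9.23%) had H3R8me2a in both. Over all members, both P14 lists held H3R2me2a at 37.3%, H3R8me2a at 11.4% and H4R3me1 at 10.1%. Of marks with 3 P14 lists, at least 2 lists held H4R3me2a at 26% and H4R3me2s at 12.9%, which is not comparable with the shares from 2 lists. Members with none of the 5 marks numbered 5563 at P7 and 3139 at P14. H4R3me2s had 2 lists at P7 and 3 at P14, and the P14 lists were mostly longer, so these counts are not on equal terms.

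**Figure D5:**
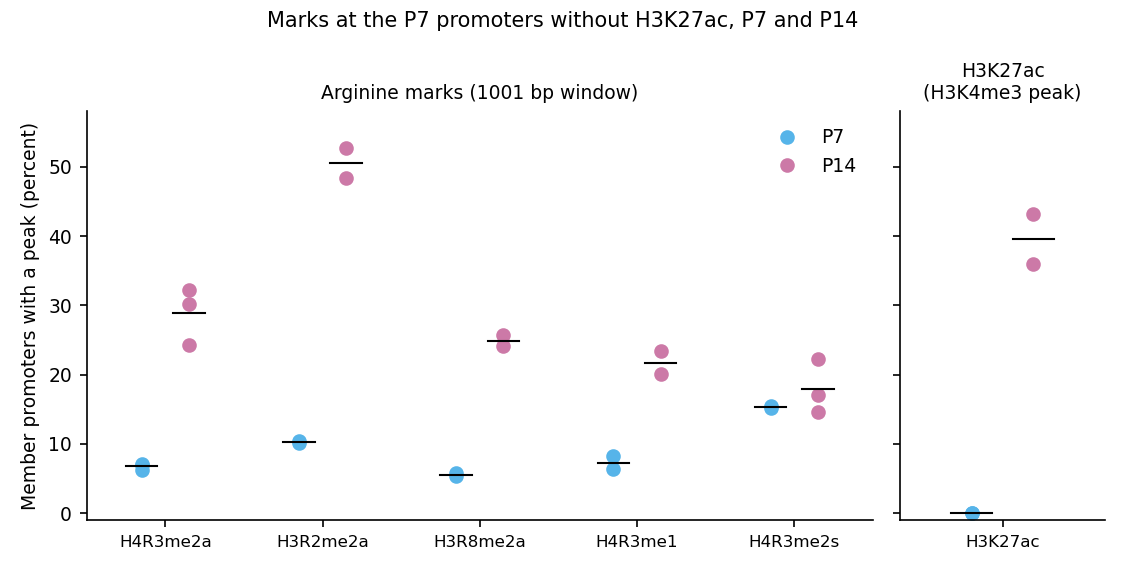
Percent of the 6171 members with a peak of each arginine mark in the summit window (left) and with an H3K27ac peak overlapping the H3K4me3 peak (right) in every WT list of P7 (blue) and P14 (pink), with a bar at the mean. P7 and P14 lists do not overlap for H4R3me2a, H3R2me2a, H3R8me2a and H4R3me1 and do for H4R3me2s; H3K27ac at P7 is 0 by the rule and is 43.2% and 36% at P14.

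In dKO testes H4R3me2s peaks were found at fewer members. The mark lay at 15.5% and 15.2% of members in the 2 WT lists and at 10.3% and 7.32% in the 2 dKO lists, a difference of -6.53 percentage points with no overlap between genotypes. The two-sided exact permutation test gave p = 0.33, the smallest that 2 against 2 lists allow, so the design cannot pass 0.05. The dKO lists held 33941 and 28221 peaks, between the 19981 and 36145 of the WT lists. At acetylated promoters the shares were 47.7% and 46.3% in WT and 32.1% and 24.7% in dKO. With all 4 lists cut to 19981 peaks, the members' shares were 15.5% and 9.9% in WT and 6.9% and 5.25% in dKO, again without overlap. With peaks at q of at most 0.01 the difference was -1.31 points.

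Prmt1 RNA was lower but present in the dKO libraries. In bulk it fell from 234 ± 14.1 CPM (counts scaled to library size, SD, n = 3 libraries) to 167 ± 27.9 (SD, n = 3 libraries), a log2 fold change of -0.49 ± 0.13 (SE, edgeR quasi-likelihood test, adjusted p = 0.0334), a call that was lost, with adjusted p between 0.0696 and 0.105, when any library except dKO replicate 2 was left out. In Smart-seq2 it stood at 216 and 149 CPM in WT and 112 and 86.5 CPM in dKO (log2 fold change -0.88 ± 0.26, SE, edgeR adjusted p = 0.133). It was called there by DESeq2 (adjusted p = 0.0172) and by edgeR without WT replicate 1 (adjusted p = 0.0268) or WT replicate 2 (adjusted p = 1.46e-05), while without either dKO library its adjusted p was 1. Gene-level counts include exons that the Cre does not remove, so they give a limited check of the deletion. The Prmt1 promoter itself was acetylated and was no member.

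Bulk RNA-seq called member genes less often than all genes in the higher direction and more often in the lower, and neither difference was tested. Of 3922 member genes that passed the filter on low counts, 141 (3.6%) were higher in dKO and 105 (2.68%) were lower at an adjusted p below 0.05 and at least a 2-fold change, against 5.32% and 1.78% of all 16554 genes tested. The balance of directions depended on the settings, with 84 higher and 79 lower without WT replicate 1, 89 and 91 without WT replicate 2, and 375 and 421 with no fold limit. The members' median log2 fold change was 0.01 and that of all genes 0.02. Among 3786 acetylated genes the shares were 0.872% and 0.581%, and among 1666 tested genes without H3K4me3 16.7% and 4.08%. Within the members, calls were more frequent where no P14 H3K27ac was found, 5.49% higher and 4.23% lower of 1584 genes, than where both P14 lists held it, 1.67% and 1.14% of 1317. The latter genes were also the more abundant ones, and abundance was not held equal. Whole testis was sequenced, and markers of other cells moved with genotype: 4 of 5 Leydig markers fell (summed TPM 618 to 718.8 in WT and 155.9 to 178.4 in dKO), 3 of 5 peritubular markers fell (826.9 to 899.9 and 290.4 to 507.1), 1 of 9 tested Sertoli markers fell (5659 to 6060 and 3991 to 4453), and 0 of 10 germ cell markers were called (1558 to 1825 and 1456 to 1508). No Leydig, peritubular or Sertoli marker was at 0 TPM in a bulk library. Their part in the calls at member genes was not tested.

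The member genes with the smallest adjusted p that fell in bulk were Tubb3, Kcnk3, Ace, Slc7a8 and Trim62. Tubb3, a beta-tubulin of neurons, was at 105, 101 and 111 TPM in WT and 18.1, 18.8 and 14.6 TPM in dKO, a log2 fold change of -2.45 ± 0.16 (SE, adjusted p = 0.000119). The groups lay far apart, and in sorted cells Tubb3 was at 11.6 and 8.55 TPM in WT and 6.25 and 4.44 TPM in dKO. Kcnk3, a potassium leak channel, was at 25.6, 26.4 and 22.9 TPM in WT bulk and 4.17, 4.33 and 2.84 TPM in dKO bulk, with at most 0.23 TPM in any sorted library. The angiotensin-converting enzyme gene Ace fell by 1.26 on the log2 scale, the amino acid transporter gene Slc7a8 by 1.44 and the ubiquitin ligase gene Trim62 by 1.45. Of these 5, no promoter held H3K27ac in both P14 lists, against 27.3% of all members that did. A link with the RNA change was not tested.

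Nkx6-1, Zbtb8b, Cyp2u1 and Enpep were among the member genes with the smallest adjusted p that rose. Nkx6-1 had 1, 2 and 0 counts in the WT bulk libraries and 47, 114 and 87 in dKO, so its fold change depends on how zero is treated and is not given. Its sorted libraries were at or below 1.08 TPM in both genotypes. The zinc finger gene Zbtb8b rose by a log2 fold change of 1.40, Cyp2u1 (a cytochrome P450) by 2.20 and Enpep (an aminopeptidase) by 1.24. By list, against the 5.32% of all tested genes called higher and the 1.78% called lower, 5 of 33 tested developmental transcription factors rose (Gata3, Msx1, Nkx6-1, Onecut2 and Zic1) and 1 fell (Dlx1). Gata3 was at 0.6, 0.33 and 0.67 TPM in WT bulk and at 23.1, 3 and 3.03 TPM in dKO, so that 1 dKO library stood apart. Of 37 signalling genes 3 rose (Bmp3, Fgf9 and Fgf10) and 0 fell, and of 33 neuronal genes 7 rose and 3 fell, among them Drd4 and Kcnd3. The dopamine receptor gene Drd4 was at 10.2, 9.59 and 11.9 TPM in WT bulk and at 2.18, 2.61 and 1.37 TPM in dKO bulk, with no overlap. Some of these genes stayed very low in both genotypes, such as the glutamate receptor gene Grin2b at 0.01 TPM in each WT library and 0.06 to 0.12 TPM in dKO. Of 16 germline members Upp1 rose and 0 fell, and 0 of the 6 meiotic prophase members were called. Of 8 Sertoli members Amh alone was called lower, from 567 to 721 TPM in WT to 123 to 204 TPM in dKO. Their median log2 fold change was -0.51, and Sox9 stood at -0.61 (edgeR adjusted p = 0.0104), short of the 2-fold limit. Of 2 peritubular members Itga8 fell.

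In Smart-seq2 of sorted cells the calls differed between tools. Of 3426 tested member genes, edgeR called 0 higher and 0 lower at an adjusted p below 0.05 and a 2-fold change, and of all 16443 tested genes 0 (0%) as well. At an unadjusted p below 0.05, 654 members (19%) were higher and 166 (4.85%) lower, against 16.4% and 7.35% of all genes. DESeq2 called 390 (11.1%) of 3514 members higher and 111 (3.16%) lower, against 7.33% and 3.93% of all genes it tested. Leaving out a WT library changed the edgeR result, to 1397 higher and 407 lower without WT replicate 1 and to 1148 and 360 without WT replicate 2, fits in which the lone WT library is assumed to vary like the dKO pair, while leaving out either dKO library gave 0 calls. The fit's median log2 fold change over all genes was 0.15 and over the members 0.35, so directions are relative to that shift. The dKO libraries also detected more genes, 21404 and 20194 against 17106 and 15587 in WT, from 15610392 to 18547103 counts per library. Marker sums moved with genotype too. The 10 Sertoli markers summed to 257 and 231.5 TPM in WT and 350.7 and 492.7 TPM in dKO, and the 10 germ cell markers to 1495 and 1472 TPM in WT and 1807 and 1802 TPM in dKO. The 5 macrophage markers were all at 0 TPM in both WT libraries and summed to 28.9 and 34.16 TPM in dKO, with Adgre1 at 0 TPM in all 4. Their part in the members' values was not tested.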

How the data were processed

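Peaks had been called by the authors per sample with MACS2 2.1.0 on mm10 after trimming with fastp 0.23.2; the deposited lists give fold enrichment (a ratio) and −log10 p and q. Peak names show a q cut-off for H3K4me3 and a p cut-off for the other marks; which aligner and control were used is not given in the sources used here. The authors' RSEM tables hold expected counts and TPM per gene. Expected counts were rounded and fitted with edgeR 4.0.16 (TMM, filterByExpr, quasi-likelihood test, Benjamini-Hochberg adjustment; SE is the log2 fold change over the root of F), with DESeq2 1.42.0 as an alternative. Libraries held 12396345 to 18547103 counts. Peaks overlapped at 1 bp or more, and each was given the gene of the nearest GENCODE vM21 start; 55141 of 55401 gene IDs of the RNA tables matched. Sequences came from the GRCm38 reference. Permutation and sign-flip tests over lists were exact. Scripts were tested on simulated data.

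The members and lists were chosen with earlier results of these data known. Named genes were up to 3 per list by H3K4me3 enrichment, the 5 with the highest WT Smart-seq2 TPM, the 5 with the highest P14 H3K27ac enrichment, those with at least 4 arginine marks, and up to 5 per direction by adjusted p in bulk RNA-seq; other genes were named after their values were seen. Some genes that this rule names are not reported here.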

Additional observations from a re-analysis of the deposited data

How the results depend on the processing

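Of 257 alternative values, 223 were labelled as unchanged and 0 reversed. For tested results the label meant the same direction and the same side of the threshold. The P14 against P7 and dKO H4R3me2s tests cannot pass the threshold with these lists, so their labels show direction only. For shares without a test the label meant a move smaller than the spread. Counts were labelled more loosely: 7981 members with the first P7 H3K27ac list alone counted as unchanged against 6171. The member promoters numbered 3373 with H3K4me3 peaks at a −log10 q of at least 10. The share of members with H3K27ac in both P14 lists was 28.8% in the summit window, 16.1% with peaks at q of at most 0.01, 25.7% with lists cut to the shortest, 25.9% for members with no H3K27ac within 1000 bp and 41.3% in the stronger members, and a single P14 list gave 36% to 43.2%. The share of genes at 1 TPM was 56.1% in Smart-seq2 and 79% in bulk for all nearest genes and 57.2% and 84.2% for protein-coding genes, and 82.1% of genes reached 0.5 TPM in bulk. In a shorter summit window the median GC content was 63.8% and the CpG ratio 0.722. Without the fold limit bulk RNA-seq called 375 member genes higher and 421 lower in edgeR, and leaving out 1 library gave 84 to 153 higher and 79 to 133 lower. DESeq2 called 390 member genes higher and 111 lower in Smart-seq2, and leaving out 1 library in edgeR gave 0 to 1397 higher and 0 to 407 lower. The causes were not tested.

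The deviations of same-numbered replicates had correlations of 0.111, -0.313 and -0.211 in bulk and 0.0122 in Smart-seq2. With 2 or 3 libraries a group these values cannot decide whether the numbers pair the libraries. With the replicate block, edgeR called 110 member genes higher and 100 lower in bulk and 0 and 0 in Smart-seq2, and Prmt1 in bulk had an adjusted p of 0.0814. Peak lists give no depth, so an absent peak is not an absent mark, and 2 or 3 lists a group limit every exact test.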
